A study of Schizosaccharomyces pombe with 8 samples.

Results

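The snoRNA genes described here were snu32, snR88, sno12, sno16 and snr79 of the fission yeast Schizosaccharomyces pombe, 5 of the 166 genes named in a list of Pac1-TAP peaks. They were chosen by their presence in that list and because the study examined them further, sno12 as a control H/ACA box snoRNA that it did not count as a Pac1 target, so the presence of a peak at each of them is a description and was not tested. Pac1 is an RNase III of fission yeast, an endonuclease that cuts double-stranded stretches of RNA such as the stems of hairpins. The data came from chromatin immunoprecipitation with sequencing (ChIP-seq), 2 Pac1-TAP immunoprecipitates with 2 inputs, all from the strain FBY2277, an h+ strain with the alleles ade6-M216, leu1-32, ura4-D18 and his3-D1 in which Pac1 carries a TAP tag (Pac1-TAP-natMX6), grown in EMM medium. Immunoprecipitates and inputs thus shared every allele. The series held no immunoprecipitate of this kind from an untagged strain, so signal that does not depend on the tag could not be measured. The other 4 libraries of the series, RNA polymerase II immunoprecipitates and inputs, were not analysed here. The list held 88 peaks, each combined by the authors from both immunoprecipitates and given 1 combined p-value, so no value per library, no depth and no replicate error stood behind the positions below.

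Small nucleolar RNAs (snoRNAs) work in the nucleolus as RNA-protein particles. Box C/D snoRNAs guide methylation of ribose and box H/ACA snoRNAs guide formation of pseudouridine, both mostly in ribosomal RNA, while a few such as U3 act in the cleavage of the ribosomal RNA precursor. In budding yeast, most snoRNA genes with their own promoter make a longer precursor, and RNase III can open it at a hairpin beside the mature RNA so that exonucleases trim the ends. The annotation names snu32 a small nucleolar RNA U3B, so it belongs with U3 and is not a guide of modification. It names sno12 a box H/ACA snoRNA and gives snR88, sno16 and snr79 only as snoRNAs, and the target sites of these 4 RNAs were not taken up here. The study itself classed sno16 and snr79 as C/D box snoRNAs. On Northern blots it reported that precursors of both with a longer 5′ end built up once Pac1 was kept out of the nucleus. For sno12 it reported no effect and detected no precursor. At snu32 and snR88, as at the other U3 gene snu3, it reported RNA polymerase II running on past the gene after Pac1 exclusion. It did not find such readthrough to be widespread at snoRNA genes.

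The sequences of 3 of the genes are shown because they hold letters of the boxes that define the classes of snoRNA. They were read from the reference genome ASM294v3, 5′ to 3′ on the gene's strand, and capitals mark the C box letters TGATGA, the D box letters CTGA or the ACA letters near the 3′ end. The positions are II:3958832-3959086 on the minus strand for snu32, I:1316808-1316891 on the plus strand for snR88 and III:583416-583605 on the plus strand for sno12.
snu32: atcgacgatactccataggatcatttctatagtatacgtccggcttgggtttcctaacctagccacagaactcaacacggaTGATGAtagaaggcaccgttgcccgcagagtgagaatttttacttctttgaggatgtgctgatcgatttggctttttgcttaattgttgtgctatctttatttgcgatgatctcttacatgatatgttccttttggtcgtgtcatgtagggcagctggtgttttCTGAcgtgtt
snR88: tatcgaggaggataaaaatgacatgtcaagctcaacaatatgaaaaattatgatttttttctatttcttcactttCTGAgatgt
sno12: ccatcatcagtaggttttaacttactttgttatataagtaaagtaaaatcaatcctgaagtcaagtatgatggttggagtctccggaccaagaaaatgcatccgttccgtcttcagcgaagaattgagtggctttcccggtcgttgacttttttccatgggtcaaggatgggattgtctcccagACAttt
The D box letters stood at base 246 of the 255 bases of snu32, 6 nt before its end, and at base 76 of the 84 bases of snR88, 5 nt before its end. snu32 also held the C box letters at base 82, and snR88 held no exact TGATGA. In sno12 the letters ACA stood at base 185 of 190, 3 nt before the end, as in box H/ACA RNAs. snr79, of 88 bases, held TGATGA at base 8 and CTGA at base 83, 2 nt before its end. sno16, of 187 bases, held no exact match to the C box, D box or ACA letters within its annotated bounds, which says only that these letters were not in that window. Of 65 snoRNA genes of the annotation, 46.2% held TGATGA anywhere, 49.2% held CTGA in the last 15 nt and 23.1% held ACA in the last 6 nt. The letters ANANNA of the H box were in all 5 genes and in 89.2% of the 65, so they set no gene apart. All motifs were searched on the gene's strand only, and TGATGA at base 8 of snr79 overlapped a second CTGA.

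Short designed sequences show where the RNAs that the study probed lie relative to the genes and peaks. The oligonucleotides against the precursors of snr79 and sno12 pair with RNA upstream of the mature 5′ end, those against the mature RNAs with RNA inside it, and each is shown 5′ to 3′ as the complement of the RNA, in lower case since no base is marked.
snr79 precursor: gagctattagcaaatttgacatttcttcag
snr79 mature: aaatcattgtgccttcaccgaacg
sno12 precursor: gttgtgacggtttttaccttaggttagg
sno12 mature: ccatccttgacccatggaaaaaagtcaacg
sno16 mature: actccttcaccagaactacgcag
Counted from the first base of the gene as 1, the precursor oligonucleotide of snr79 covered bases -37 to -8 and that of sno12 bases -67 to -40, with no base numbered 0. The mature oligonucleotides covered bases 38 to 61 of snr79, 142 to 171 of sno12 and 38 to 60 of sno16. The precursor site of snr79 lay inside its peak, which began 198 bp before the gene. That of sno12 lay outside its peak, which began 15 bp before the gene.

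All 5 genes overlapped a peak, as their choice required. In the reference annotation without the long non-coding RNAs numbered from 2000 upwards, which the list did not use, 16 of 65 snoRNA genes (24.6%) and 155 of 6869 genes of any class (2.26%) overlapped a peak by at least 1 bp. The list itself named 15 snoRNA genes, the 5 described here and 10 others, as well as 4 genes of spliceosomal small nuclear RNAs (snRNAs). snu32 and snR88 had a listed p-value of 0, a value too small to be written. The same value stood at 34 of the 88 peaks of the list, among them those of 4 of the 10 other snoRNA genes and all 4 snRNA genes. The value was 7.67e-264 at sno12, 8.39e-78 at snr79 and 6.35e-78 at sno16, while the weakest peak of the list had 9.75e-59. The p-values at snr79 and sno16 were thus larger than those at the other 3 genes.

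The peak reached past the 3′ end of each of the 5 genes and its centre lay on the 3′ side of the gene midpoint in 5 of 5. Peak edges were measured on the gene's strand from the listed gene start and end, and a negative reach means that the peak stopped inside the gene. The reach beyond the 3′ end was 736 bp at snR88, 541 bp at snu32, 435 bp at snr79, 392 bp at sno12 and 255 bp at sno16. The reach before the 5′ start was 222 bp at snR88, -36 bp at snu32, 198 bp at snr79, 15 bp at sno12 and 206 bp at sno16. At sno16 the peak was thus nearly even about the gene, while at snu32 and sno12 it lay almost wholly on the gene and downstream of it. The peak centre lay 215.5 bp past the end of snR88, 94 bp past that of sno12, 85.5 bp past that of snu32 and 75 bp past that of snr79. At sno16 the centre lay inside the gene, 117.5 bp past its start and 24.5 bp past its midpoint.

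The share of the peak beyond the gene end was 70.6% at snR88, 65.7% at sno12, 60.3% at snr79, 59.3% at snu32 and 39.4% at sno16. The genes themselves took up 8.06% of the peak at snR88 and 12.2% at snr79, the shortest genes, against 28.9% at sno16, 31.8% at sno12 and 40.7% at snu32. Peak widths were 1042 bp at snR88, 912 bp at snu32, 721 bp at snr79, 648 bp at sno16 and 597 bp at sno12. The sno12 peak was among the narrowest of the list, with 3 of the 88 peaks narrower, and 29 were narrower than the snR88 peak. Beyond the 3′ end, the 5 genes had a median reach of 435 bp (255 to 736 bp), against 400.5 bp (-10 to 476 bp) for the other 10 listed snoRNA genes, and 2 of the 5 (snR88 and snu32) reached farther than any of the 10. The peak centre lay past the midpoint in 5 of the 5 genes and 7 of the 10 others, and past the gene end in 4 of the 5 and 6 of the 10. At the 4 snRNA genes the centre lay past the gene end in 4, with a median reach of 508 bp (473 to 1639 bp). Median width was 721 bp at the 5 genes, 780.5 bp at the 10 others, 881 bp at the snRNA genes and 1807 bp at the 69 peaks with neither class. The ranges of width and of 3′ reach overlapped among the 3 classes, and nothing was tested between them.

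**Figure D1:**
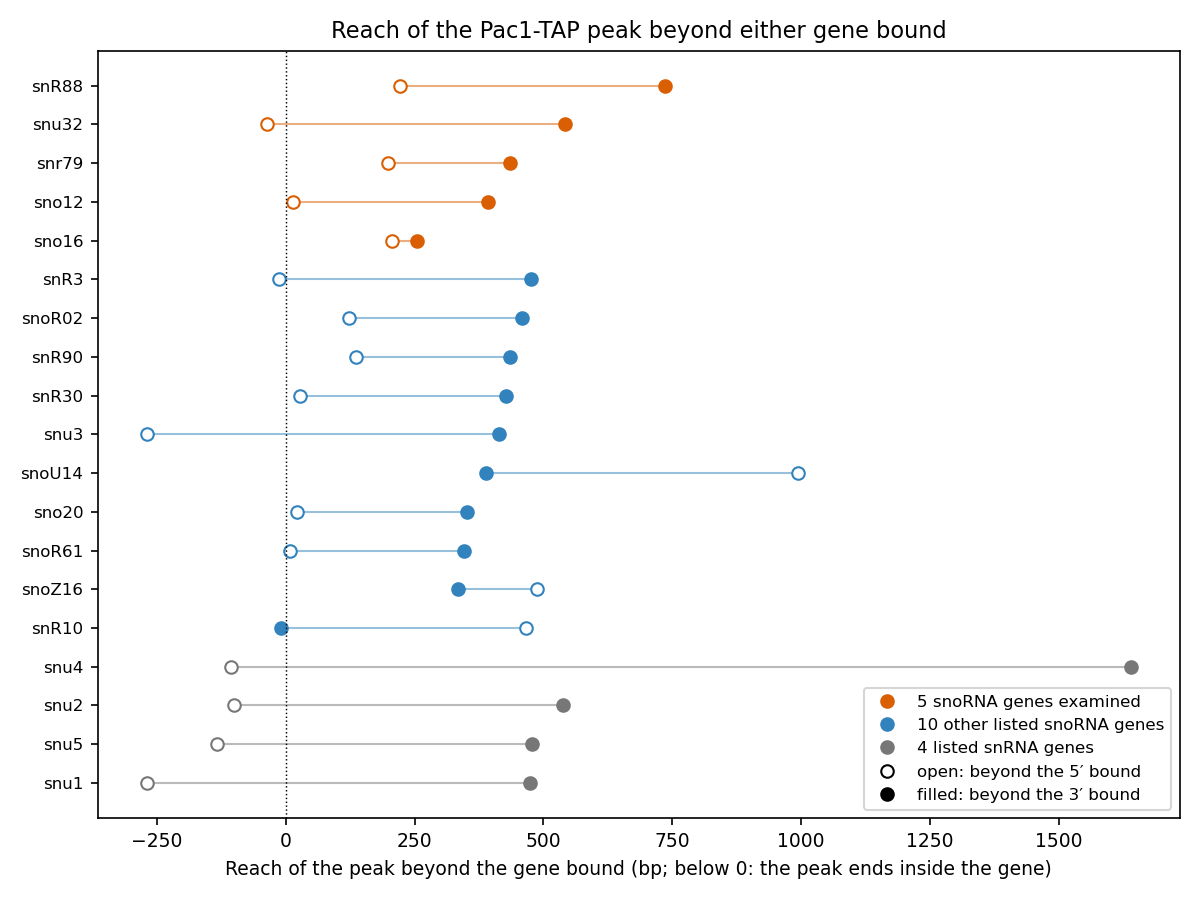
Reach of the Pac1-TAP peak beyond the 5′ bound (open circles) and the 3′ bound (filled circles) of each listed snoRNA and snRNA gene in bp, with 1 row per gene and no error bars since the list holds 1 value per peak. All 5 examined genes (orange) have the filled circle to the right of the open one, between 255 bp (sno16) and 736 bp (snR88), while 3 of the 10 other snoRNA genes (blue) have it to the left.

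The genes around each snoRNA gene set what lies beneath the rest of its peak. A ChIP peak has no strand, so signal past the end of a snoRNA gene and signal on a gene that runs toward it cannot be told apart. The nearest gene on the 3′ side was on the opposite strand at 4 of the 5 (snu32, snR88, sno16 and snr79), and the peak reached it in each of these. At snr79 this gene was gpi12, which contains snr79 and also counted on the 5′ side, so the peak reached it by construction. Overlapping genes were counted in the same way in every set. Among the 10 other listed snoRNA genes the nearest 3′ gene was on the opposite strand at 7 and was reached by the peak at 5 of those. A nearest 3′ gene on the opposite strand was common in the annotation, at 46.2% of the 65 snoRNA genes and 68% of 6864 genes of any class, and no difference was tested. The peak also overlapped some other gene at 4 of the 5 genes and at 8 of the 10 others. At snu32, snR88, sno16 and snr79 it overlapped at least 1 protein-coding neighbour, and the overlapped part always included the 3′ end of that neighbour.

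snu32 lay 352 bp from grx4, which codes for a monothiol glutaredoxin and runs toward it. The peak covered 253 bp of grx4, or 27.7% of the peak, of which 12 bp were coding and 241 bp belonged to its 3′ untranslated region. The list did not pair grx4 with this peak, and the overlap appeared with reference bounds only. On the 5′ side the nearest gene was SPBC26H8.13C, on the same strand and 852 bp away, and the peak did not reach it. The listed bounds of snu32 spanned 407 bp, with 88 bp more at the 5′ end and 64 bp more at the 3′ end than the 255 bp of the reference. With reference bounds the peak reached 52 bp before the start and 605 bp past the end, and its centre lay 149.5 bp past the end.

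snR88 lay 89 bp from tnr3, which codes for a thiamine diphosphokinase and runs toward it. The peak covered 647 bp of tnr3, 535 bp of them coding, so 62.1% of the snR88 peak lay on this neighbour against 8.06% on snR88 itself. Upstream, tvp15, a gene for a vesicle protein on the same strand, ended 164 bp before snR88, and the peak covered 58 bp of it with no coding bases. The list paired the peak with all 3 genes.

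snr79 lay inside gpi12, which codes for an enzyme of glycosylphosphatidylinositol anchor synthesis, on the opposite strand. It fell in exon 4 of 4, in the 3′ untranslated region and 238 bp past the stop codon of gpi12. The peak covered 709 bp of gpi12, or 98.3% of the peak, of which 197 bp were coding, and only its upstream edge lay past the 3′ end of gpi12. At this locus no part of the snr79 gene was free of the other transcript.

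sno16 stood between a non-coding RNA and php5, a subunit gene of the CCAAT-binding factor. php5 ran toward sno16 from 101 bp downstream, and the peak covered 154 bp of it with no coding bases. The non-coding RNA SPNCRNA.1597, on the same strand as sno16, ended 2 bp before sno16 in the reference, where the peak covered 204 bp of it. With the bounds of the list, where it is called SPBC3B8.03-antisense-1, the same RNA ran over the whole of sno16 and the peak covered 482 bp of it. The annotation marks this RNA as a possible alternative untranslated region. With all reference genes, the peak also covered 412 bp, or 63.6% of its width, of the long non-coding RNA SPNCRNA.6108, which lies on the opposite strand and overlaps sno16 itself.

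sno12 was the only one of the 5 with no neighbour under its peak. The nearest genes were SPNCRNA.467, 126 bp upstream, and mis16, a gene for a centromere protein, 520 bp downstream, both on the strand of sno12. The peak reached 15 bp upstream and 392 bp downstream and touched neither. With all reference genes, including the long non-coding RNAs numbered from 2000 upwards, it covered 211 bp of SPNCRNA.6918, on the opposite strand 181 bp past the end of sno12.

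**Figure D2:**
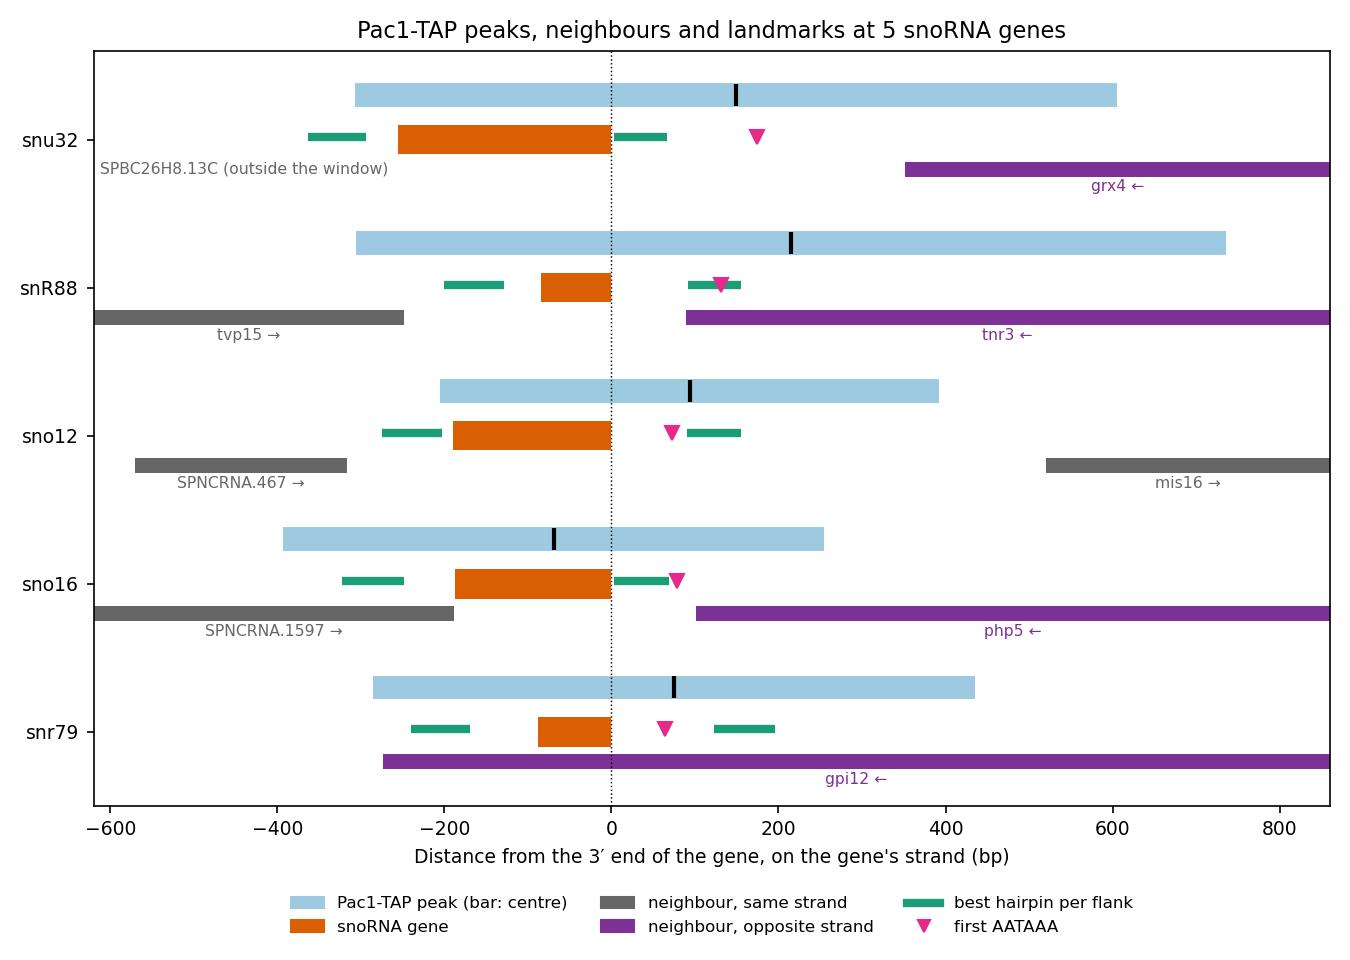
Map of the 5 loci to scale, with distance in bp from the reference 3′ end of each snoRNA gene on its own strand. Pac1-TAP peaks are light blue with a black bar at the centre, snoRNA genes orange, neighbours grey (same strand) or purple (opposite strand), hairpins with the lowest energy in each flank green, and the first AATAAA a pink triangle. The peak of snR88 extends 736 bp past the gene end over tnr3, the peak of snr79 lies within gpi12 but for its upstream edge, and the peak of sno12 stops before mis16, 520 bp away.

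Hairpins beside the genes were sought in the sequence, as the structures that RNase III enzymes cut. Local folding of the 200 nt before and the 200 nt after each gene, with structures of at most 150 nt, gave a lower energy before the gene than after it at 4 of the 5, with sno12 as the exception. The lowest energies before the gene were -43.8 kcal/mol at sno16, -38.9 at snu32, -37.3 at snr79, -32.4 at snR88 and -14.1 at sno12. After the gene they were -15.4 kcal/mol at sno16, -28.1 at snu32, -22.6 at snr79, -15.2 at snR88 and -25.3 at sno12. The value before sno16 was the 2nd lowest of the 65 snoRNA genes, and the one after it ranked 59th. The only lower value before a gene, -45.6 kcal/mol at snu3, came from folding upstream of its reference start. By alignment with snu32, the RNA of snu3 ended 122 nt before its reference end, so this flank may hold part of the RNA itself. The rank, counts and medians before the gene kept this flank. The lower energy lay before the gene at 7 of the 10 other listed snoRNA genes and at 30 of the 50 not in the list. Median energies before the gene were -37.3 kcal/mol at the 5 genes, -24.5 at the 10 others and -23.1 at the 50, and after the gene -22.6, -20.8 and -22.1 kcal/mol. Median GC content before the gene was likewise highest at the 5 genes, with 34.5% against 29.8% at the 10 others and 31.0% at the 50, and its part in the energies was not tested. The study found Pac1 at snoRNA genes with their own transcription unit and at none in introns or clusters. The 65 genes were not split by this. Flanks of genes in introns or clusters can belong to a host or neighbouring RNA, so ranks and medians here and below may compare unlike sequence. At snu32, snR88, sno16 and snr79 the lower energy thus lay before the gene while the peak centre lay on the 3′ side of the midpoint.

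**Figure D3:**
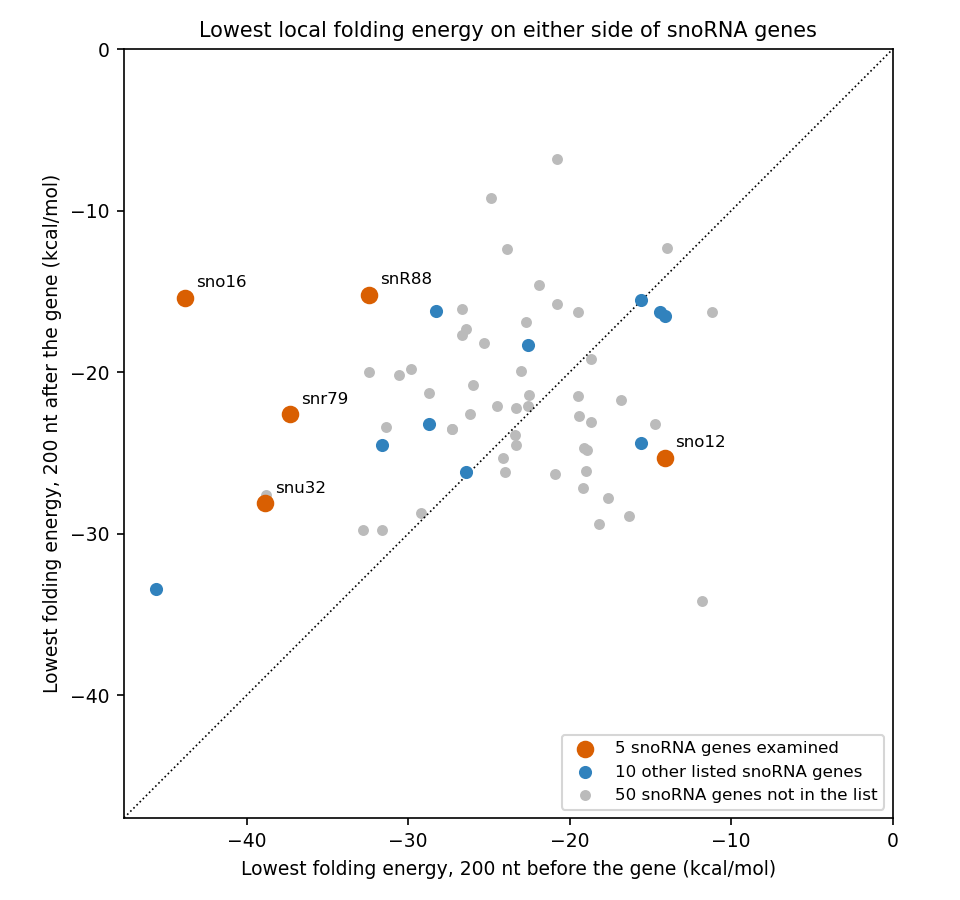
Lowest energy of a local RNA structure in the 200 nt before (x axis) and the 200 nt after (y axis) each of 65 snoRNA genes, in kcal/mol, with 1 point per gene and a dotted line where both are equal. Points above the line have the lower energy before the gene, as do 4 of the 5 examined genes (orange, labelled), 7 of the 10 other listed genes (blue) and 30 of the 50 genes not in the list (grey), and sno12 lies below it. Among the 10, snu3 was folded from its reference bounds, which appear offset from the RNA.

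The single hairpins with the lowest energy, of at most 75 nt and 1 loop, were taken as candidates for a stem in the precursor. The study itself predicted hairpins after snu32, and before sno16 and snr79 at no more than 50 nt from the mature 5′ end. The hairpins here were picked by energy and ended 61 nt before sno16 and 81 nt before snr79. Whether they are those of the study was not tested. Among the 5 genes the lowest energies were after snu32 and before sno16, and both hairpins are shown with paired bases in capitals. That of snu32 spans II:3958766-3958828 on the minus strand and is given whole. Of that of sno16 only the inner arms are given, II:3393485-3393512 and II:3393520-3393549 on the plus strand, which face each other across a loop of 7 nt.
snu32 hairpin: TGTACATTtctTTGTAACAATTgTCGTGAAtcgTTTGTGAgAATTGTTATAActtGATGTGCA
sno16 hairpin 5′ arm: GaTAGTTTTAGCAACTTTTtTTacGTAG
sno16 hairpin 3′ arm: CTGCagAAcAGAAGTTGCTtaAAAGCTAgT
The snu32 hairpin had 26 base pairs, a loop of 3 nt and an energy of -21.7 kcal/mol, the lowest of this kind after the 65 snoRNA genes when each was folded from its reference end. By alignment with snu32, the reference end of snu3, the other U3 gene, appears offset from the RNA, though no RNA end was measured. Folded from the aligned end, snu3 had -25.4 kcal/mol, which puts snu32 in place 2. The snu32 hairpin began 3 nt past the reference end, within the listed bounds of the gene, and lay wholly inside the peak. The sno16 hairpin had 28 base pairs over 75 nt, the longest allowed, with an energy of -22.1 kcal/mol, and was the 2nd lowest of this kind before the 65 genes. It ended 61 nt before sno16, inside the peak and within SPNCRNA.1597. The hairpins before snr79 (-17.0 kcal/mol, 25 base pairs, 81 nt before the gene) and snR88 (-17.3 kcal/mol, 24 base pairs, 45 nt before the gene) also lay inside the peaks. Those before snu32 (-18.8 kcal/mol, 24 base pairs, 39 nt before the gene) and sno12 (-10.4 kcal/mol, 19 base pairs, 13 nt before the gene) did not lie wholly inside the peaks. At sno12 the better hairpin was after the gene, with 19 base pairs, a loop of 11 nt and -12.3 kcal/mol. It began 91 nt past the end, so the peak centre at 94 bp fell within it. After snR88, sno16 and snr79 the best single hairpins had only -8.8, -8.2 and -8.1 kcal/mol. By single hairpins, 3 of the 5 genes had the lower energy before the gene, against 4 of the 10 others and 27 of the 50. Fold predictions are of sequence alone, and no RNA was probed in these data.

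The letters AATAAA, the usual signal for cleavage and polyadenylation of messenger RNAs, were found within 500 nt past the reference end on the strand of each of the 5 genes. The first stood 64 nt past the end of snr79, 73 nt past sno12, 78 nt past sno16, 131 nt past snR88 and 174 nt past snu32. Each lay inside the peak, which extended past the reference end by 435, 392, 255, 736 and 605 bp in the same order. The peak centre was near the letters at snr79 (75 bp past the end), sno12 (94 bp) and snu32 (149.5 bp), farther downstream at snR88 (215.5 bp) and upstream at sno16. AATAAA within 500 nt is common in this genome, at 55.4% of the 65 snoRNA genes and 54.8% of the 6869 genes. Within 200 nt it stood at 5 of the 5 genes, 33.8% of the snoRNA genes and 30.8% of all genes. The window of 200 nt was added to the planned one of 500 nt and lies just above the farthest first match, 174 nt at snu32. The contrast within 200 nt was therefore not tested. A match of letters is not evidence of use.

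The listed genes with the most similar peak edges were found by adding the differences of both reaches in bp. Closest to snu32 were mrp1, the RNA gene of RNase MRP, with a summed difference of 21 bp, and snu2, the gene of the U2 snRNA, with 67 bp. This match rests on the listed bounds of snu32. With reference bounds its peak reached 52 bp before and 605 bp past the gene, against listed reaches of -25 bp and 531 bp at mrp1. Closest to sno12 were the snoRNA genes sno20 (46 bp) and snR30 (48 bp), and closest to snr79 the snoRNA genes snR90 (62 bp) and snoR02 (98 bp). snR88 had no near match, with snr79 at 325 bp and nmt1, a gene of thiamine synthesis, at 334 bp. For sno16 they were prl53, a non-coding RNA gene, at 145 bp and zrt1, a zinc transporter gene, at 166 bp.

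The proteins that bind these RNAs were checked as the other genes of the pathway. Of the 4 core protein genes of box C/D particles (fib1, nop56, nop58 and snu13) and the 4 of box H/ACA particles (cbf5, gar1, nhp2 and nop10), 0 of 8 overlapped a peak. With 2.26% of all genes overlapping one, this count says nothing particular about them.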

How the data were processed

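Per the labels and the study's methods, the authors processed single-end reads of 50 nt with Trimmomatic, used HISAT2 for alignment to ASM294v2, called Pac1-TAP peaks with MACS2 in each immunoprecipitate against its input, keeping duplicate reads, and joined both replicates with MSPC. The deposited list gives 1 combined p-value per peak, peak and gene bounds, and no counts, so the depth is unknown and positions carry no replicate error. Peak starts may count from 0, a shift of 1 bp.

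Peaks were measured against listed gene bounds on the gene's strand. Neighbours, sequence and letters came from RefSeq ASM294v3, a later build. Of 167 listed systematic names, 153 matched by name and place, 53 with both bounds identical, among them 4 of the 5 genes. For snu32 the nearest listed genes with an identical start or end, not necessarily both, lay 16.8 kb before and 199 kb after. Overlap meant at least 1 bp. Folding used ViennaRNA 2.7.2 (flanks of 200 nt, span 150 nt, 37 °C), alignment Biopython 1.88 and scripts Python 3.11.15, checked on planted hairpins. With 1 value per peak and genes chosen with their values known, no test was made and no p-value computed. Oligonucleotide sequences are the study's own, and the 1 against the sno16 precursor had no exact match in the reference and is not shown.

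The genes, lists and settings were chosen with earlier results of these data known. Named were the 5 genes, the genes under their peaks, the nearest gene on either side, the 2 listed genes with the most similar peak edges, the other copy of U3 and 8 particle protein genes. snu3 was chosen after its values were seen.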

Additional observations from a re-analysis of the deposited data

How the results depend on the processing

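Of 25 alternatives over 6 counts, 23 stayed within 1.5 times the reported count and 15 left it unchanged. Some could not change a count. Mature RNA bounds were the same as the reference gene bounds, and an offset as a percent of gene length keeps its sign. Allowing ATTAAA beside AATAAA cannot lower a count of 5. A count of 4 that moves to 3 or 5 always stays within 1.5 times, so this tally is a weak measure of stability. With only peaks of a combined p-value of at most 1e-100, or of at most 1e-200, the number of genes with the peak centre beyond the gene midpoint was 3, against 5, because snr79 and sno16 drop out by construction. The number whose peak overlaps another gene was 5 with all reference genes and 3 with the genes paired in the list, against 4. The number with the lowest structure before the gene was 3 with spans of at most 75 nt and 3 with single hairpins, against 4. The single hairpins and the folding from listed bounds were chosen after seeing the data. The reference bounds of snu3 appear offset from the RNA by alignment with snu32, so flanks of other genes may be too.

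No paired analysis was possible because both replicates stand joined in the list, which holds 1 value per peak. Settings that leave out a replicate were not run, since each library's own peaks were not used here. The depth behind the peaks is unknown, so widths and edges carry no error.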

Other observations

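The U3 RNA gene has a second copy, snu3, which is also listed. The 255 bases of snu32 aligned to the snu3 locus over 256 columns with 234 identical bases (91.4%), and the longest identical run was 90 bases. The aligned 3′ end lay 122 nt before the end of snu3 in the reference and 61 nt before its listed end. Measured from that end, the peak reached 605 bp past snu32 and 474 bp past snu3, and its centre lay 149.5 bp past snu32 and 84.5 bp past snu3. Before the aligned start the peak reached 52 bp at snu32 and 50 bp at snu3. Both copies thus had most of the peak past the aligned end. At snu3 the lowest hairpin began directly at the aligned end, on the minus strand at I:987623-987691 (ASM294v3), and is shown with paired bases in capitals for comparison with that of snu32.
snu3 hairpin: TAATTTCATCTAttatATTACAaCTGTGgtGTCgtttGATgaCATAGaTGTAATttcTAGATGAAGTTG
The hairpin of snu32 had 26 base pairs, a loop of 3 nt and an energy of -21.7 kcal/mol, against 26 base pairs, a loop of 4 nt and -25.4 kcal/mol for that of snu3. Reads of 50 nt cannot tell the copies apart in part of the gene: of 863 windows of 50 nt in the snu32 peak, 41 (4.75%) occurred again at snu3, and 0 windows in the peaks of the other 4 genes were repeated in the genome. The part of such reads in the snu32 peak was not tested.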
